A study of Homo sapiens with 16 samples.

Results

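The effect of KDM5C mutation on gene expression was examined in 786-O cells, an established line of human origin from clear cell renal cell carcinoma (ccRCC), by bulk RNA-seq. The comparison was made up of 3 of the 16 libraries of the series, chosen by their labels: 1 library of cells with a control guide (sgCtrl) and 2 libraries of cells with guides against KDM5C (sgKDM5C, guides 4 and 5). Beside them stood 2 libraries of 786-O cells with guides against KDM5D (sgKDM5D, guides 2 and 4), which served as a second reference. The sgCtrl and sgKDM5C populations had been infected with a lentivirus carrying Cas9, a puromycin resistance gene and 1 guide, and were selected with puromycin. The control guide had no target. The sgKDM5D populations were also made with a Cas9 lentivirus, but which resistance gene they carried is not stated. All 5 were mixed populations and not clones. Each mutant library thus averages over cells with different mutations and cells that may have none. The 11 other libraries came from A498, 769-P and CAKI-2, which are further ccRCC lines. Each line had 1 sgCtrl library and sgKDM5C libraries of guides 4 and 5, from populations made in the same way. CAKI-2 alone of these lines also had sgKDM5D libraries, of guides 2 and 4. The 2 guides were the replicates of the KDM5C mutant group and the control had no replicate. In the main fit the p-values rest on the spread between guides, estimated jointly over the groups with 2 guides in all 4 lines. They do not measure the spread of the 786-O guides alone. The error of the control is taken from this shared estimate and not from control libraries.

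KDM5C removes methyl groups from lysine 4 of histone H3, a mark of active promoters and enhancers, and is encoded on chromosome X. KDM5D is its homologue on chromosome Y, and KDM5A and KDM5B are autosomal members of the same family. Loss of KDM5C function recurs in ccRCC. The kidney tumours of this class usually lack VHL, as 786-O cells do, and hence keep the hypoxia-inducible factor HIF-2α active. Both guides were designed by the study against the same exon, exon 8 of 26 of the MANE Select transcript, in the region that encodes the first PHD finger, a zinc-binding module that reads histone tails. The exon lies at chrX:53243871-53244029 (GRCh37, minus strand), is 159 bases long and is wholly coding. It is shown as the stretch targeted in the sgKDM5C libraries. The exon is in capitals, with 20 bases of intron on either side in lower case, 5′ to 3′ on the strand of the gene:
KDM5C exon 8: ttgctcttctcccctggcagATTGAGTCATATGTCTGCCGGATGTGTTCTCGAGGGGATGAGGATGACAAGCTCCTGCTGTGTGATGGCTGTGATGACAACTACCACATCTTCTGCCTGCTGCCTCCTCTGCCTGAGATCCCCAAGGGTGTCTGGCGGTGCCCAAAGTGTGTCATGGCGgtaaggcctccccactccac

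Each of the 5 libraries of 786-O held 27.4M to 30.9M counts (M, 10 to the power 6), and 20175 of the 57773 genes of the table had the 60 counts over all libraries that were required for testing. The kidney tubule and ccRCC markers that could be matched (7 of 9: PAX8, PAX2, CDH6, KRT8, KRT18, VIM and EPAS1) all reached 1 CPM (counts per M of the scaled library total), with summed levels of 3420 to 3770 CPM per library. Markers of leukocytes, endothelium, liver and red cells summed to 0.205 to 0.359 CPM, and PTPRC, CD3E and HBB had no count in any of the 5 libraries. The library of guide 4 stood farthest from the rest. A chi-square comparison of counts gave 76.4 per gene between guides 4 and 5, the largest value of the 10 pairs, and 8.89 between the control and sgKDM5D 4, the smallest. Values are therefore given below for each guide separately, and calls also without guide 4.

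KDM5C itself was lower in both mutant libraries than in every other library of the line. KDM5C (ENSG00000126012, chromosome X, 53205465 to 53254604 on GRCh37) measured 166 CPM in sgCtrl, 43.6 and 78.8 CPM in guides 4 and 5, and 152 and 169 CPM in sgKDM5D 2 and 4. The mutant libraries thus lay well below a reference range that was itself narrow, and guide 4 lay lower than guide 5. The fitted log2 fold change was -1.44 against sgCtrl (SE 0.266, edgeR adjusted p = 0.206), -1.39 against sgKDM5D (SE 0.229, edgeR adjusted p = 0.0479) and -1.41 against the 3 other libraries as 1 reference (SE 0.216, edgeR adjusted p = 0.0187). Without guide 4 neither of the calls was kept, and the adjusted p of the calls lost in this way was 0.0731 to 0.114 against sgKDM5D and 0.0579 to 0.0921 against the 3 others. Leaving out sgKDM5D 2 also ended both. The transcript count is an incomplete check of the mutation, since a small insertion or deletion can leave the transcript in place. By western blot, the study reports a strong loss of KDM5C protein with both guides in this line.

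No other member of the family passed a test. KDM5A measured 57.4 CPM in sgCtrl, 66.5 and 56.9 CPM in guides 4 and 5, and 61.0 and 56.4 CPM in the sgKDM5D libraries, so the groups overlapped. KDM5B measured 36.1 CPM in sgCtrl, 36.1 and 28.4 CPM in guides 4 and 5, and 43.2 and 39.0 CPM in sgKDM5D. Guide 5 was thus the lowest library, while guide 4 equalled the control after rounding. KDM5D measured 49.2 CPM in sgCtrl, 32.5 and 42.2 CPM in guides 4 and 5, and 39.0 and 37.5 CPM in the libraries with guides against it. Guide 4 was thus the lowest of the 5 libraries for KDM5D, below the libraries in which KDM5D itself was targeted.

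**Figure D1:**
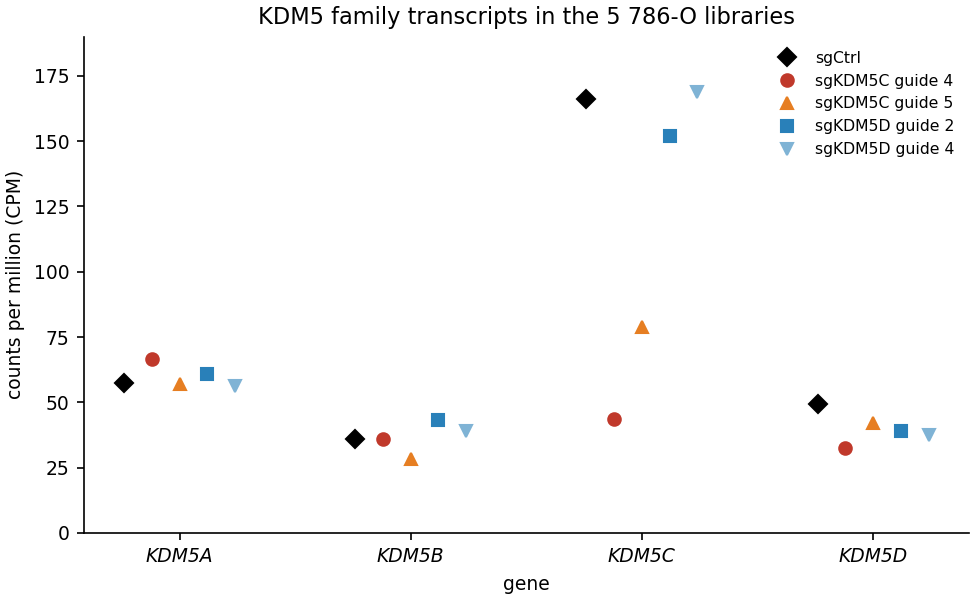
Level of the 4 KDM5 transcripts in counts per M (CPM, linear axis from 0) in each of the 5 786-O libraries, 1 symbol per library and no averaging. KDM5C is at 43.6 and 78.8 CPM in the sgKDM5C libraries and at 152 to 169 CPM in the other 3, while the libraries overlap for KDM5A and KDM5D.

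The other enzymes and subunits that write or remove methylation of this lysine were read together with the KDM5 genes. Of these 17 genes 16 were tested, and the median log2 ratio to the control was -0.09 for guide 4 and -0.07 for guide 5. In both guides 1 lay above and 2 below all 3 reference libraries, beside 7.67% and 7.77% of all genes tested. The 2 below were KDM5C and, by a log2 gap that rounds to 0.0, KDM5B. Only KDM1B, a demethylase of the same residue from another enzyme class, was above all 3 reference libraries, at 49.6 and 45.2 CPM in the mutants against 35.1 to 41.4 CPM, and it passed no test. The neighbours of KDM5C on chromosome X (9 genes tested) gave medians of 0.07 and -0.08, and none was called.

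Very few genes passed the test across all genes. Genes are called here at a Benjamini-Hochberg adjusted p under 0.05 over all 20175 genes tested. Against sgCtrl alone 2 genes were called, which is 0.00991% of those tested, both of them lower, although 589 genes had an unadjusted p under 0.05. Against the sgKDM5D libraries 13 genes were called (0.0644%), 6 higher and 7 lower in the KDM5C mutant cells. Against the 3 other libraries together 16 genes were called (0.0793%), 11 higher and 5 lower. In the comparisons that use sgKDM5D a difference can come from either mutation. All 18 genes called against sgKDM5D or against the 3 others had both mutant libraries above or below all 3 others. Of all genes tested, 7.67% (above) and 7.77% (below) had this order. The calls were made from these same libraries, so the order follows largely from the selection and adds no support to them. Of the 18 genes, 10 lay 2-fold or more from the control in both guides.

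The number of calls moved with the libraries that entered the fit. Fitted by edgeR on the 786-O libraries alone, none of the 3 tests gave a call (269, 495 and 552 genes had an unadjusted p under 0.05), whereas DESeq2 on the same libraries called 12, 17 and 28, among them 0 of the 2, 9 of the 13 and 14 of the 16 calls above. Without guide 4 the 3 tests called 4, 13 and 12 genes, of which 1, 5 and 6 were among the calls above. Without guide 5 they called 205, 314 and 445.

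EDN2, CRABP2 and PCSK6 were called higher in the KDM5C mutant cells in both tests that use sgKDM5D. EDN2, the peptide ligand endothelin 2 (chromosome 1, 41944446 to 41950354), had 177 counts in sgCtrl, 329 and 435 in guides 4 and 5, and 48 and 58 in sgKDM5D 2 and 4. The mutant libraries were the highest, the control lay between, and both sgKDM5D libraries lay far below it. EDN2 had a log2 fold change of 2.86 against sgKDM5D (SE 0.279, edgeR adjusted p = 0.00144) and of 2.24 against the 3 others (SE 0.234, edgeR adjusted p = 0.00341), but of 1.01 against sgCtrl (SE 0.311, edgeR adjusted p = 1.0). Both calls were kept without guide 4. CRABP2, which carries retinoic acid to its nuclear receptors, had 136 counts in sgCtrl, 533 and 284 in guides 4 and 5, and 112 and 143 in sgKDM5D. The control fell within the sgKDM5D range and guide 4 was well above guide 5. The difference from the 3 others was 1.61 (SE 0.236, edgeR adjusted p = 0.018) and was not called without guide 4 or without sgKDM5D 2. PCSK6, a convertase that cleaves growth factor precursors, had 22 counts in sgCtrl, 136 and 47 in guides 4 and 5, and 9 and 14 in sgKDM5D. It was 2.63 higher than in the 3 others (SE 0.387, edgeR adjusted p = 0.018), again not without guide 4 or sgKDM5D 2, and its interval overlaps that of SNRPA1 on the same strand.

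In SLITRK2, SPNS2 and MTMR1, also called higher, the guides were closer to each other. SLITRK2, a synaptic adhesion protein encoded on chromosome X (144899347 to 144911374), had 459 counts in sgCtrl, 1224 and 1138 in guides 4 and 5, and 442 and 468 in sgKDM5D. The 3 references were nearly equal and both mutants were more than 2-fold above them, with a log2 fold change of 1.34 (SE 0.205, edgeR adjusted p = 0.0187) that was not called without guide 4 or without sgKDM5D 2. SPNS2, the exporter of sphingosine-1-phosphate, had 361 counts in sgCtrl, 648 and 647 in guides 4 and 5, and 331 and 282 in sgKDM5D. MTMR1, a phosphatase of phosphoinositides on chromosome X, had 589 counts in sgCtrl, 1249 and 1297 in guides 4 and 5, and 817 and 576 in sgKDM5D. In both genes the guides agreed closely and no library of another genotype reached them. Against the 3 others SPNS2 was 0.98 higher (SE 0.124, edgeR adjusted p = 0.0111) and MTMR1 0.93 higher (SE 0.132, edgeR adjusted p = 0.0179). The calls of both against sgKDM5D were lost without sgKDM5D 2 (adjusted p from 0.131 to 0.518 over the 10 genes lost in this way), and that of MTMR1 also without sgKDM5D 4.

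The other genes called higher were GFRA2, RYR2, DOC2A, MATN2 and PALM. GFRA2, a co-receptor for the neurotrophic ligand neurturin, had 23 counts in sgCtrl, 217 and 180 in guides 4 and 5, and 59 and 67 in sgKDM5D. Control, sgKDM5D and mutant libraries formed 3 separate levels, and the difference from the 3 others was 2.1 (SE 0.286, edgeR adjusted p = 0.0151). RYR2, the calcium release channel of the endoplasmic reticulum in heart muscle, had 20 counts in sgCtrl, 225 and 96 in guides 4 and 5, and 47 and 30 in sgKDM5D, a difference of 2.34 (SE 0.307, edgeR adjusted p = 0.0127). This call was kept without guide 4 (adjusted p = 0.0346), while its call against sgKDM5D (adjusted p = 0.0479) was lost without guide 4 (adjusted p = 0.114) and without either sgKDM5D library. DOC2A, a calcium sensor of vesicle release, had 13 counts in sgCtrl, 141 and 60 in guides 4 and 5, and 17 and 24 in sgKDM5D, and differed by 2.47 (SE 0.351, edgeR adjusted p = 0.0179). Guide 4 was more than 2-fold above guide 5 in both of these genes, and the DOC2A call was not kept without it. MATN2, a matrix protein of the matrilin family, had 517 counts in sgCtrl, 4036 and 1360 in guides 4 and 5, and 538 and 787 in sgKDM5D, and differed by 2.09 (SE 0.312, edgeR adjusted p = 0.0187). Its interval overlaps that of the ribosomal protein gene RPL30 on the opposite strand, and the call was not kept without guide 4 or without sgKDM5D 2. The last gene called higher, PALM, which encodes a membrane-anchored protein, was at 0.038 CPM in sgCtrl, 1.13 and 0.611 CPM in guides 4 and 5 and 0.329 and 0.11 CPM in sgKDM5D (edgeR adjusted p = 0.0418), below the level at which genes were otherwise named, and it is given to complete the list.

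**Figure D2:**
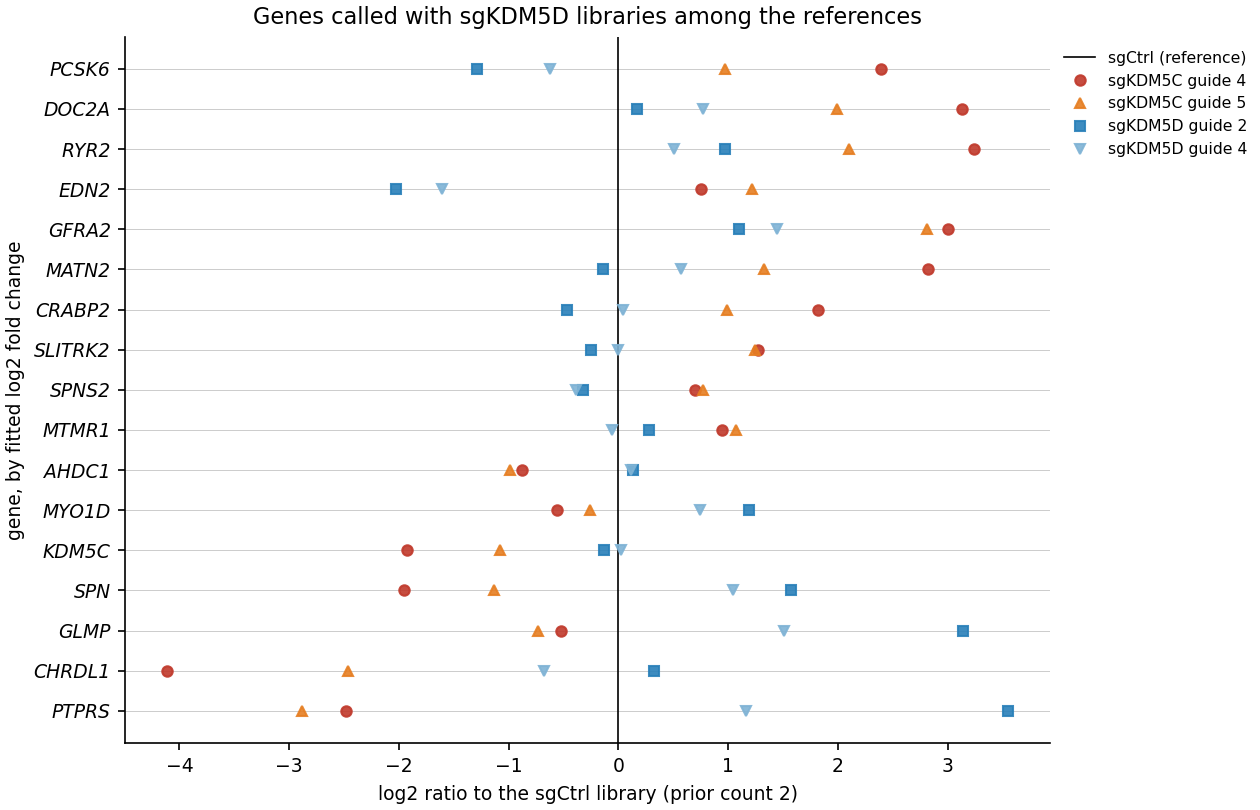
Log2 ratio of each mutant library to the sgCtrl library (vertical line at 0, prior count 2) for the 17 genes named from the tests that use the sgKDM5D libraries, 10 of them called higher and 7 lower. The red and orange symbols (sgKDM5C) lie on one side of the line and of both blue symbols (sgKDM5D) in every gene; the blue symbols lie far to the right of the line for PTPRS and GLMP and to the left of it for EDN2.

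Of the genes called lower, AHDC1 had the highest counts beside KDM5C. AHDC1, an AT-hook protein that binds DNA (chromosome 1, 27860546 to 27930942), had 2045 counts in sgCtrl, 1224 and 1078 in guides 4 and 5, and 2556 and 2259 in sgKDM5D. The mutants were well separated from a narrow reference range, with a difference of -1.01 from the 3 others (SE 0.153, edgeR adjusted p = 0.0187) that was not called without guide 4 or without sgKDM5D 2. CHRDL1, a secreted antagonist of bone morphogenetic proteins encoded on chromosome X, had 203 counts in sgCtrl, 11 and 37 in guides 4 and 5, and 290 and 129 in sgKDM5D. Its log2 ratios to the control were -4.11 and -2.46 in guides 4 and 5, and it differed from the 3 others by -3.1 (SE 0.455, edgeR adjusted p = 0.018), though not without guide 4. SPN, the sialoglycoprotein CD43, had 142 counts in sgCtrl, 39 and 67 in guides 4 and 5, and 485 and 300 in sgKDM5D. The sgKDM5D libraries were 2-fold or more above the control and the mutants of KDM5C below it, and the difference from sgKDM5D of -2.85 (SE 0.316, edgeR adjusted p = 0.0035) was kept without guide 4. The SPN interval overlaps on the same strand that of QPRT, an enzyme of NAD synthesis, which was at 37.8 CPM in sgCtrl and at 84.3 to 128 CPM in all 4 mutant libraries; the part of shared reads in the SPN values was not tested.

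In PTPRS, GLMP and MYO1D both sgKDM5D libraries lay above the control. PTPRS, a receptor tyrosine phosphatase that binds proteoglycans, had 54 counts in sgCtrl, 9 and 6 in guides 4 and 5, and 744 and 126 in sgKDM5D 2 and 4. The sgKDM5D 2 library thus stood far above the rest, and the mutants were the lowest even without it. The fitted difference was -5.78 against sgKDM5D (SE 0.722, edgeR adjusted p = 0.00857) and -2.93 against sgCtrl (SE 1.0, edgeR adjusted p = 1.0). The call against sgKDM5D was kept without sgKDM5D 2 and without guide 4, whereas the call against the 3 others (adjusted p = 0.0187) was lost without guide 4 (adjusted p = 0.0921) and with the GC trend of each library removed (adjusted p = 0.0536). GLMP, a lysosomal membrane glycoprotein, had 6 counts in sgCtrl, 4 and 3 in guides 4 and 5, and 77 and 21 in sgKDM5D, and MYO1D, a class I myosin, had 53 counts in sgCtrl, 39 and 46 in guides 4 and 5, and 141 and 92 in sgKDM5D. In both genes the KDM5C mutants lay near the control and the sgKDM5D libraries apart from it. They were called against sgKDM5D only (-3.73 and -1.43, edgeR adjusted p = 0.0359 each), not against sgCtrl or the 3 others, and both calls were lost without guide 4 and without sgKDM5D 2. The GLMP interval overlaps TMEM79 on the opposite strand.

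The 2 genes called against the control alone were low in all 4 mutant libraries of the line. MLPH, an adaptor of melanosome transport, had 30 counts in sgCtrl, 0 in guides 4 and 5, and 0 and 2 in sgKDM5D (edgeR adjusted p = 0.0163). Set against a floor of 3 counts per library it was at least 11-fold lower in guide 4 and at least 10.5-fold lower in guide 5. SCARA3, a scavenger receptor-like protein, had 106 counts in sgCtrl, 19 and 23 in guides 4 and 5, and 17 and 8 in sgKDM5D, a difference of -2.43 (SE 0.322, edgeR adjusted p = 0.0279) that was lost without guide 4 (adjusted p = 0.0704). In these genes the control library was the one that stood apart, so a difference of the control library and an effect of both mutations cannot be told apart.

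Genes moved by both guides were then counted without a test, as the control had 1 library. Guide 4 alone lay 2-fold or more above the control in 1089 genes and below it in 697, and guide 5 in 480 and 910. Both guides were 2-fold or more higher in 216 genes (1.07% of those tested) and lower in 202 (1.0%), and they went 2-fold in opposite directions in 69. Of these 418 genes 391 had a mean under 100 counts over the 5 libraries, and 296 of them had a mean under 10. As both ratios have the same control library as denominator, a control value that is high or low by itself moves both in the same direction.

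The sgKDM5D libraries were set beside these genes. As mutants compared with the same control, these libraries cannot tell a difference of the control from an effect of both mutations. Of the 216 genes higher in both guides, 118 were above both sgKDM5D libraries as well as the control, and in 98 at least 1 guide was not above all of them. For the 202 lower genes the numbers were 107 and 95. In 70 of the higher and 48 of the lower genes both sgKDM5D libraries also lay 2-fold or more from the control in the same direction. The share of all genes tested in which both sgKDM5D libraries did so was not counted. Regardless of size, both KDM5C mutant libraries lay above all 3 others in 1548 genes (7.67%) and below them in 1567 (7.77%).

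Of the 10987 genes whose 5 libraries averaged 100 counts or more, 27 were moved by both guides, 17 higher and 10 lower. Of these, 14 higher and 9 lower lay outside the other libraries. Guide 4 was 2-fold from the control in 257 such genes (182 higher, 75 lower) and guide 5 in 72 (24 higher, 48 lower), while the guides differed 2-fold from each other in 403. For comparison, sgKDM5D 2 was 2-fold from the control in 84 of these genes, sgKDM5D 4 in 19, and the sgKDM5D guides from each other in 107. The 2 KDM5C guides thus differed from each other in more genes than either differed from the control. The average is over all 5 libraries, so a gene can reach it through the libraries in which it is high. PTPRS had 744 counts in sgKDM5D 2 but 9 and 6 in guides 4 and 5, and GFRA2 had 23 in sgCtrl. In such libraries single reads still matter.

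**Figure D3:**
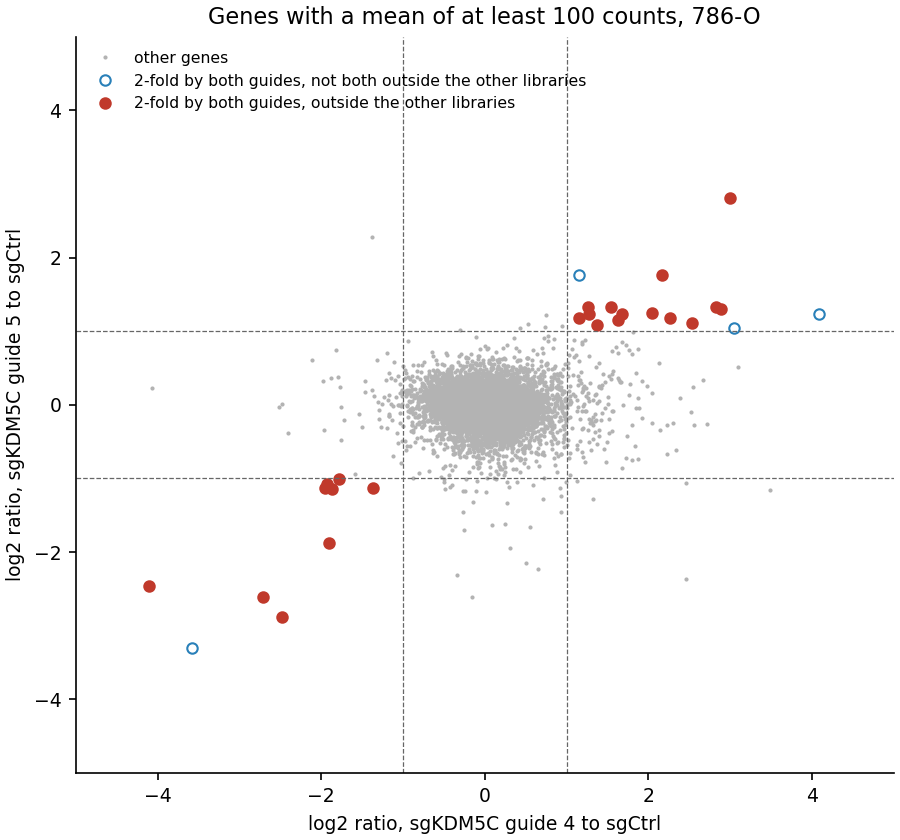
Log2 ratio of guide 5 to sgCtrl against that of guide 4 to sgCtrl for the 10987 genes that averaged 100 counts or more in the 5 786-O libraries; dashed lines mark a 2-fold difference. The 23 filled red points are 2-fold from the control in both guides and outside the range of the other libraries, the 4 open blue points are 2-fold in both guides with only 1 guide outside it, and the grey cloud is wider along the guide 4 axis than along the guide 5 axis. Both axes share the control library.

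The separation of a gene is the log2 gap between the nearer mutant library and the nearest of the 3 others. Among the genes that were 2-fold or more from the control in both guides and averaged 100 counts or more, the 10 with the widest separation on the higher side ran from 0.58 to 1.37, and 3 of them were called against the 3 others (GFRA2, SLITRK2 and MATN2). ACKR3, an atypical receptor for the chemokine CXCL12, had 360 counts in sgCtrl, 955 and 949 in guides 4 and 5, and 475 and 553 in sgKDM5D, and its guides were nearly equal (log2 difference from the 3 others 1.03, SE 0.21, edgeR adjusted p = 0.154). TYMP, thymidine phosphorylase, had 273 counts in sgCtrl, 879 and 721 in guides 4 and 5, and 231 and 445 in sgKDM5D (edgeR adjusted p = 0.112), with intervals of SCO2 and ODF3B overlapping it on the same strand. In both genes the mutants were the highest libraries, with sgKDM5D 4 the nearest to them.

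Others of this group were carried more by guide 4. ITIH5, a hyaluronan-binding protein of the inter-alpha-trypsin inhibitor family, had 568 counts in sgCtrl, 3014 and 1354 in guides 4 and 5, and 737 and 817 in sgKDM5D (edgeR adjusted p = 0.0829). MYH13, a myosin heavy chain of extraocular muscle, had 281 counts in sgCtrl, 1802 and 640 in guides 4 and 5, and 289 and 377 in sgKDM5D (edgeR adjusted p = 0.133). Guide 4 was more than 2-fold above guide 5 in both. PXDN, a peroxidase that cross-links type IV collagen, had 649 counts in sgCtrl, 2208 and 1510 in guides 4 and 5, and 43 and 905 in sgKDM5D 2 and 4, so the sgKDM5D guides lay far apart from each other and no test was passed (edgeR adjusted p = 0.759). LIMS2, a focal adhesion adaptor, had 52 counts in sgCtrl, 187 and 131 in guides 4 and 5, and 95 and 59 in sgKDM5D, and the long non-coding RNA ENSG00000261298 had 50, 254, 182, 90 and 92 counts in the same order of libraries. Neither passed a test (edgeR adjusted p = 0.242 and 0.24 against the 3 others).

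On the lower side 9 genes met the same conditions. They had separations from 0.08 to 2.48, and 4 of them were called (KDM5C, PTPRS, CHRDL1 and SPN). ANTXR1, an anthrax toxin receptor that binds collagen, had 121 counts in sgCtrl, 34 and 33 in guides 4 and 5, and 757 and 100 in sgKDM5D 2 and 4. As for PTPRS, sgKDM5D 2 stood far above the other libraries while the 2 KDM5C guides were almost equal and the lowest (edgeR adjusted p = 0.154 against the 3 others). PHETA2, an adaptor of endosomal transport, had 172 counts in sgCtrl, 72 and 81 in guides 4 and 5, and 139 and 146 in sgKDM5D (edgeR adjusted p = 0.577). GPR15, a chemoattractant receptor, had 530 counts in sgCtrl, 158 and 249 in guides 4 and 5, and 380 and 321 in sgKDM5D (edgeR adjusted p = 0.469). In GPR15 the sgKDM5D libraries also lay below the control, which left a separation of 0.4.

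The gap nearly closed in the last genes of the lower side. LCP1, the actin-bundling protein plastin 2, had 320 counts in sgCtrl, 101 and 165 in guides 4 and 5, and 256 and 178 in sgKDM5D, so that guide 5 and sgKDM5D 4 almost met. The gene with the identifier ENSG00000258486, for which the annotation used gave no name or position, had 522 counts in sgCtrl and 86, 88, 102 and 188 in the 4 mutant libraries, a value far below the control in each. At the 2-fold line, LCP1 was just inside, with a log2 ratio of -1.01 in guide 5, and CRABP2 was just outside, with 0.99 in guide 5. The 4 genes moved by both guides of which only 1 guide lay outside the other libraries were looked up after their values were seen. They were the signal recognition particle RNA RN7SL2, at 27.8 CPM in sgCtrl and 2.25 to 8.42 CPM in all mutants, QPRT, the ectonucleotidase ENPP3, and AIF1L, which was at 2.03 CPM in sgCtrl, 35.6 and 4.85 CPM in guides 4 and 5 and 1.1 CPM in sgKDM5D 4, with sgKDM5D 2 between the KDM5C guides.

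Pathway lists were read against all genes tested, of which 9892 had a higher value in guide 4 than in the control and 8944 in guide 5, with a median log2 ratio of 0.0 for both. Growth factor ligands and receptors were the list that held calls other than KDM5C. Of 23 tested, EDN2 and PTPRS were called in each of the tests that use sgKDM5D, in which 0.0644% and 0.0793% of all genes were called. The lists and their members were chosen with earlier results of these data known, so these shares do not show an enrichment of the list. The median was 0.09 for guide 4 and 0.0 for guide 5. EREG, a ligand of the epidermal growth factor receptor, was at 170 CPM in sgCtrl, 56.5 and 88.2 CPM in guides 4 and 5, and 125 and 152 CPM in sgKDM5D, so both mutants lay below the others without passing a test (log2 difference from sgCtrl -1.23, edgeR adjusted p = 0.417). AREG, a ligand of the same receptor, had 16 counts in sgCtrl, 1 and 5 in guides 4 and 5, and 7 and 12 in sgKDM5D, an order like that of EREG at counts too low to separate.

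In several lists the guides differed in their counts and medians. Of 20 interferon-stimulated genes, 15 were higher than the control in guide 4 and 0 in guide 5, with medians of 0.27 and -0.4, and those of sgKDM5D 2 and 4 were -0.19 and -0.03. Of 15 p53 target genes all 15 were higher in guide 4 and 6 in guide 5, with medians of 0.51 and -0.05. The HIF target genes, which are active in VHL-deficient cells, were higher in 21 of 25 in guide 4 and in 15 in guide 5, with medians of 0.42 and 0.05, and their summed level was 9500 CPM in sgCtrl, 13900 and 10700 CPM in guides 4 and 5, and 9940 and 11100 CPM in sgKDM5D. In none of these lists was a gene called. PFKFB3, LDHA and SLC2A1, which act in glucose uptake and glycolysis, were the 3 of 25 HIF targets above all other libraries in both guides (7.67% over all genes tested), by a separation of 0.1, 0.08 and 0.01.

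Y-linked genes had their lowest summed level in guide 4. It was 340 CPM in guide 4, against 587 CPM in sgCtrl, 545 CPM in guide 5, and 555 and 584 CPM in sgKDM5D, and 1 of 10 genes was higher than the control in guide 4 and 3 in guide 5. The median log2 ratio was -0.6 in guide 4, -0.1 in guide 5, and -0.18 and 0.02 in sgKDM5D 2 and 4. RPS4Y1, a ribosomal protein, was at 333 CPM in sgCtrl, 177 and 315 CPM in guides 4 and 5, and 327 and 337 CPM in sgKDM5D. In both guides 3 of the 10 genes lay below all 3 other libraries, beside 7.77% of all genes tested, and none lay above. They were UTY, RPS4Y1 and ZFY, with separations of 0.31, 0.06 and 0.03, and no gene of the list was called. Inflammatory cytokine and chemokine genes, 2 of 17 of which were higher than the control in guide 4 and 9 in guide 5, had medians of -0.42 and 0.02, and sgKDM5D 2 went lower still with -0.7. In bulk libraries fewer cells with a transcript and less transcript per cell cannot be told apart. The part of these guide 4 differences in the calls was not tested, beyond the fits without that library given above.

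In the replication list all 19 S-phase genes tested were higher than the control in guide 5, with a median log2 ratio of 0.09, and 7 were higher in guide 4, with a median of -0.08. POLA1, the catalytic subunit of DNA polymerase alpha, was at 57.5 CPM in sgCtrl, 66.7 CPM in both guides, and 60.6 and 59.8 CPM in sgKDM5D, a small gap. MCM6, a subunit of the replicative helicase, was at 173 CPM in sgCtrl, 201 and 191 CPM in guides 4 and 5, and 169 and 177 CPM in sgKDM5D. They were 2 of the 4 genes of the 19 above all references in both guides, beside 7.67% of all genes tested, the others being PCNA and MCM3 with a separation of 0.01 each, and none was called. The G2/M list of 20 genes had medians of 0.02 and 0.04 and no member outside the other libraries.

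No gene was called in the structural, developmental and germline lists, whose counts are read against the 7.67% of all genes above and the 7.77% below all other libraries. Of 17 epithelial and mesenchymal genes, 2 lay above and 2 below all other libraries. FN1, fibronectin, measured 3670 CPM in sgCtrl, 3020 and 2420 CPM in guides 4 and 5, and 4670 and 3580 CPM in sgKDM5D, with both mutants lowest, and VIM, vimentin, measured 1590 CPM in sgCtrl, 1760 and 1810 CPM in the mutants and 1560 and 1660 CPM in sgKDM5D. Of 18 collagen and matrix genes 3 lay above and 3 below, and COL13A1, a transmembrane collagen, was lowest in the mutants with 34 and 26 counts against 49 to 68. Of the 9 genes tested of the HOXB cluster, transcription factors of body patterning, 1 lay above and 2 below the other libraries, with medians of -0.03 and -0.13. The developmental genes that the study names for this line (HOXB2, HOXB3, HOXB6, HOXB8, WNT3 and FOXA2) had none outside the other libraries and medians of 0.03 and -0.14. HOXB2 measured 18.0 CPM in sgCtrl, 12.7 and 16.4 CPM in guides 4 and 5, and 16.5 and 15.7 CPM in sgKDM5D, and FOXA2 measured 16.8, 17.3, 15.2, 19.6 and 18.5 CPM in the same order, both overlapping. The study drew that list from a separate experiment with other libraries of this line. Germline genes, a class that KDM5C represses in other tissues, were mostly at or near 0, as 6 of 20 were tested, 5 had no count in any of the 5 libraries, and none lay outside the other libraries.

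**Figure D4:**
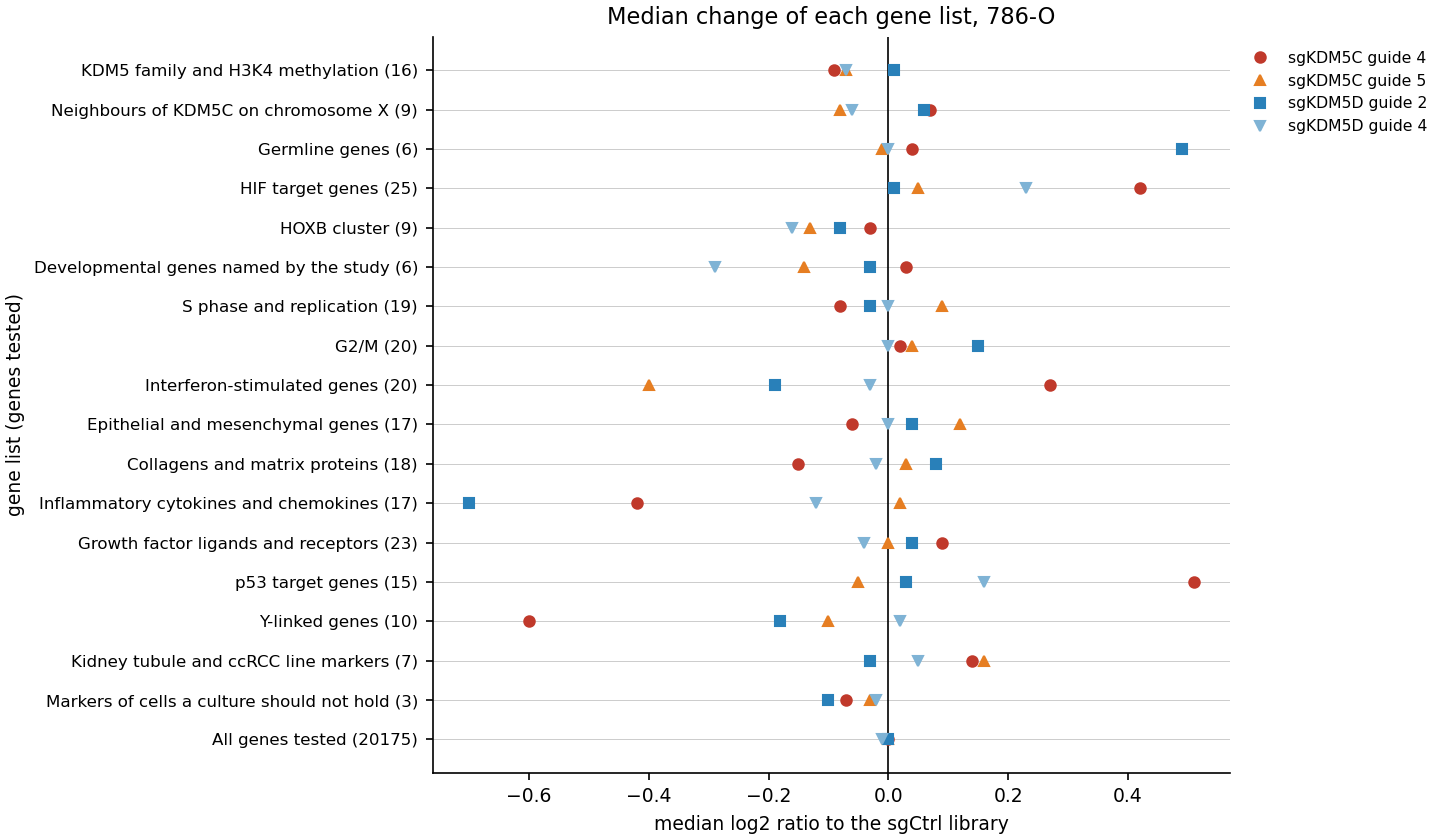
Median log2 ratio to the sgCtrl library of each gene list (number of genes tested in brackets), 1 symbol per mutant library. Guide 4 (red circles) and guide 5 (orange triangles) lie on opposite sides of 0 for interferon-stimulated genes (0.27 and -0.4) and p53 targets (0.51 and -0.05), guide 4 lies at -0.6 for Y-linked genes, and all 4 symbols lie at 0.0 or -0.01 over all genes tested.

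The same guides in the other 3 lines gave a further reference. The sgKDM5C effect in 786-O differed from its mean over A498, 769-P and CAKI-2 in 0 genes by edgeR (0% of 20175, with 537 at an unadjusted p under 0.05 and a smallest adjusted p of 0.057), and in 11 by DESeq2. For the 17 genes named from the tests with sgKDM5D the smallest adjusted p of this difference was 0.537. No gene can therefore be called particular to 786-O from the edgeR test, nor shown to behave alike in the lines.

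The values of single genes in the other lines varied. Of those 17 genes, 3 went in the 786-O direction in all 6 other sgKDM5C libraries (KDM5C, RYR2 and AHDC1), 6 did so in 5 or 6, and 8 in 3 or fewer. Some of these 8 were near 0 in the other lines, where a direction says little. In the controls of these lines SPN was at 0.0824 to 0.109 CPM and GFRA2 at 0.247 to 0.723 CPM. SLITRK2 was at 0.494 CPM in 769-P and 0.792 CPM in CAKI-2. RYR2 had log2 ratios to the control of the line of 0.58 and 0.58 in A498, 0.31 and 0.5 in 769-P, and 1.51 and 1.02 in CAKI-2 for guides 4 and 5. This was the same direction at a smaller size than the 3.24 and 2.1 in 786-O. SPNS2 was not higher in any of the 6 other libraries. CHRDL1 could be read in CAKI-2 only, where it was at 3.63 CPM in the control and 5.83 and 7.44 CPM in guides 4 and 5, since its control level was 0.0 CPM in A498 and 0.0412 CPM in 769-P. CRABP2, at 1.03 and 0.98, was higher in CAKI-2, from 0.41 CPM in its control, but lay between -0.4 and 0.17 in A498 and 769-P.

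**Figure D5:**
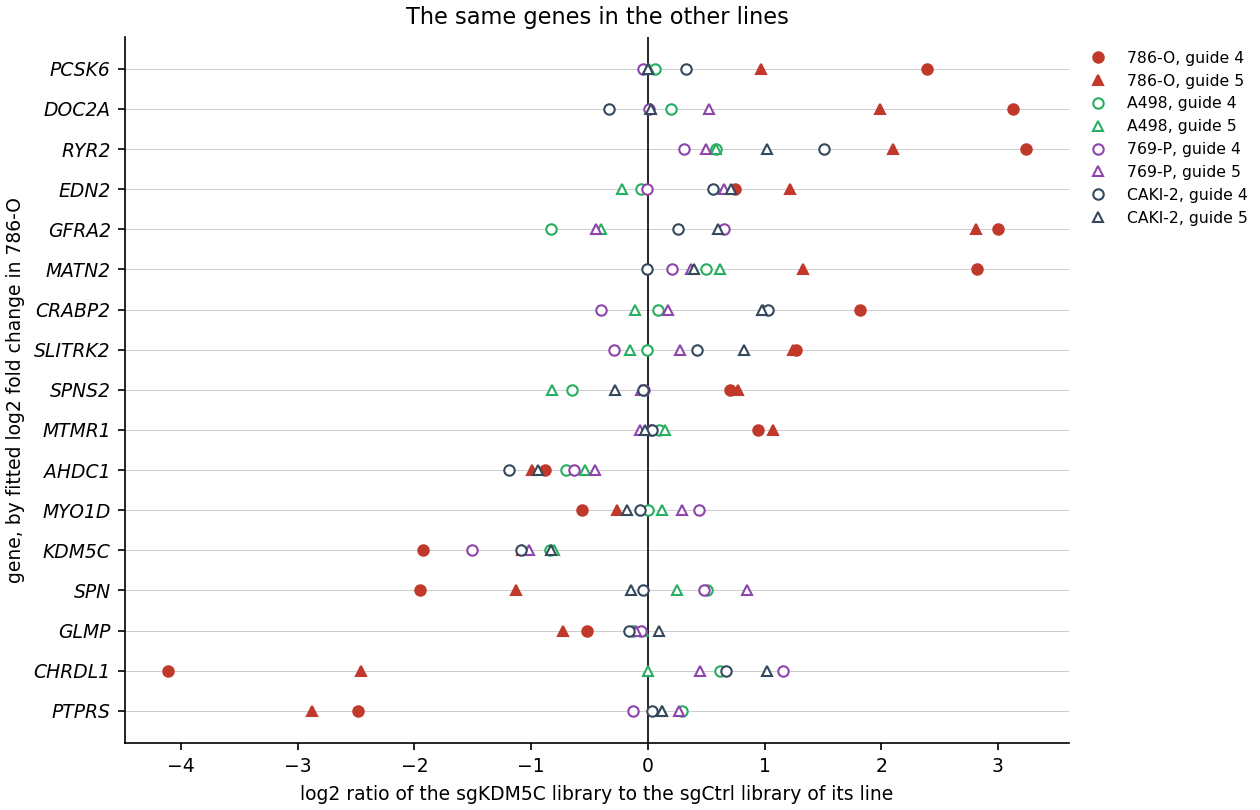
Log2 ratio of each sgKDM5C library to the sgCtrl library of its own line for the same 17 genes; filled red symbols are 786-O, open symbols are A498, 769-P and CAKI-2, circles guide 4 and triangles guide 5. For KDM5C, RYR2 and AHDC1 the open symbols lie on the side of the red ones in all 6 libraries. For SPNS2 they lie on the other side. CHRDL1 is at or near 0 CPM in A498 and 769-P, and SPN is near 0 CPM in all other lines, so their symbols there carry no direction.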

How the data were processed

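The authors extracted RNA with a NucleoSpin kit, made stranded TruSeq libraries and sequenced them as paired ends. The deposited counts per gene are whole numbers with no normalization. The submitters' processing notes name Trimmomatic 0.38, STAR 2.5.2b and GRCh37. The counting tool, its annotation and its strand setting are not given in the sources used here, so reads of overlapping genes may be shared. The names in the header sit 1 cell to the left of their columns and were read accordingly. Of 57773 gene IDs, 55538 were matched to symbols and GRCh37 positions (GENCODE release lifted to that build). All columns were mapped.

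Genes reaching 60 counts in all 16 libraries combined, the filter of the study, were fitted with edgeR 4.0.16 (R 4.3.3) by the quasi-likelihood F-test with TMM factors (0.935 to 1.07), with 1 mean for each of the 10 combinations of line and genotype and 6 residual degrees of freedom. The common dispersion was 0.0231, a biological coefficient of variation of 15.2%. P-values were two-sided and adjusted by Benjamini-Hochberg over all genes tested. Against the 3 other libraries, sgCtrl and each sgKDM5D library had the same weight. The SE was taken as the absolute log2 fold change over the root of the F statistic. Per-library levels are CPM on the TMM-scaled total, and per-library log2 ratios had 2 counts added as a prior. The procedure was tested on simulated data.

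The genes named are those called that averaged 20 counts or more in the compared libraries with all sgKDM5C libraries on one side (up to 8 per direction and test), the 10 per direction with the largest separation among genes averaging 100 counts or more, 2-fold from the control in both guides and outside the other libraries, and up to 4 of each list. The members, lists and rules were chosen with earlier results of these data known, and GC and single-line DESeq2 fits were added after seeing the data. Of the genes in the lists 5 are not analysed here. The labels give no batch. Guides were the replicates, and nothing in the labels says that libraries came from separate cultures. Depth was 27.4M to 30.9M counts (M, 10 to the power 6) per library of 786-O. The guide sequences are not printed.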

Additional observations from a re-analysis of the deposited data

How the results depend on the processing

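Counts of calls are given in the order sgKDM5C against sgCtrl, against sgKDM5D, against the 3 other 786-O libraries, and the difference from the other lines, beside 2, 13, 16 and 0 as reported. DESeq2 1.42.0 gave 23, 55, 58 and 11, no filter beyond 1 count gave 136, 297, 317 and 71, and the 786-O libraries alone gave 0 in each of the first 3, where DESeq2 gave 12, 17 and 28. With the GC trend of each library removed, the comparison with sgKDM5D gave 8, and filterByExpr gave 2 for the difference between lines. Leaving out 1 library at a time gave 4 to 205, 6 to 314, 12 to 445 and 2 to 83, the highest each time without guide 5. Without sgKDM5D 4 the comparisons with sgKDM5D and with the 3 others gave 84 and 35. Genes moved by both guides numbered 1074 with a prior count of 0.5, 113 with 5 and 27 with a mean of at least 100 counts, beside 418. Where alternatives changed a count the cause was not tested, except that fewer libraries or genes enter some of them.

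RLE size factors and filterByExpr kept all calls of the first 3 comparisons, as did DESeq2 on all libraries, and no named gene changed direction under any alternative run. With a replicate block for guide number the counts were 2, 15, 17 and 0, of which 1, 10, 13 and 0 were the calls as reported. The guide numbers do not pair the samples across lines, as the deviations of equal numbers correlated at -0.223 to 0.291 over 6 pairs of groups. Depth limits the 391 moved genes under 100 counts. At any level, 1 control library cannot show whether the control or the mutants moved.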
